A study of Mus musculus with 12 samples.

Results

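The genes described are 10 CC chemokine genes of MC38 tumours in the mouse, Ccl2, Ccl3, Ccl4, Ccl5, Ccl6, Ccl7, Ccl8, Ccl9, Ccl12 and Ccl22, out of 18193 genes with a probe set on the array. They were chosen by name, with earlier results of these data known. Every probe set annotated to 1 of these genes alone was taken, which gave 12 probe sets out of 45101: 1 for each gene, and a second for Ccl6 and for Ccl9. MC38 is a colon carcinoma line of C57BL/6 mice. The 4 groups, each of 3 tumours, were APC-KO cells with Dox, APC-KO cells with no Dox, APC-WT cells with Dox and APC-WT cells with no Dox. All 4 groups carried the same doxycycline-inducible hairpin against Tdo2 (ishTDO2), and all tumours grew in the cecum of C57BL/6 mice. Dox was doxycycline in the drinking water, so Dox itself and the induced hairpin cannot be told apart here. The labels do not say whether the APC-KO line was a single clone, nor whether each tumour of a group grew in its own animal. The p-values thus rest on the spread between these tumours alone, and that spread may be technical. Tumours are numbered as in the labels, 1 to 3 in each group, and values are given in that order.

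CC chemokines are small secreted proteins, named for a pair of neighbouring cysteines, that draw leukocytes along a gradient through G protein-coupled receptors on the cells that respond. Ccl2, Ccl7 and Ccl12 form the monocyte chemoattractant family and act through CCR2, which brings monocytes out of the marrow and into tissue. Ccl8 belongs to the same family by sequence and in the mouse acts through CCR8. Ccl3, Ccl4 and Ccl5 draw T cells and myeloid cells, Ccl3 and Ccl5 in part through CCR1, and Ccl6 and Ccl9 are rodent ligands of CCR1 made by myeloid cells. Ccl22, a product of mature dendritic cells and macrophages, acts through CCR4 on regulatory and type 2 helper T cells. In tumours these ligands are made by cancer cells, stromal cells and leukocytes in differing shares.

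The values are log2 expression values on Affymetrix arrays, 1 array a tumour. They allow a gene to be compared between tumours, but not the level of 1 probe set with that of another. RNA of the cancer cells and of host cells was measured together: the macrophage gene Csf1r and the fibroblast gene Col3a1 had mean log2 values of 11.96 and 13.37. Of 8 epithelial markers 3 were tested, Epcam, Krt8 and Cdh1, and Krt18, Krt19, Krt20, Vil1 and Cdx2 lay under the filter value of 5.55. A gene was tested where its mean over the 12 arrays reached that value, the median of all probe sets other than controls; it is no measured background. All 10 chemokine genes passed it. The targeted genes were read from the same arrays. All 3 probe sets of Tdo2 lay far under the filter value, between 2.42 and 4.17 on every array, and none changed with Dox (adjusted p between 0.414 and 0.998 in the 2 genotypes), so a knockdown of Tdo2 could not be read from these arrays. Of 4 probe sets of Apc, 2 were lower in APC-KO tumours both without and with Dox, the widest by -0.84 ± 0.09 and -0.94 ± 0.09 (adjusted p 1.02e-05 and 3.08e-06 over all probe sets), and the brightest was lower with Dox alone (-0.24 ± 0.07, adjusted p 0.0443). In such bulk samples, fewer cells of a type and less RNA per cell cannot be told apart. Differences are log2 differences ± SE from a limma fit to all 12 arrays, 3 tumours a group, and a gene passed where its 2-sided p, adjusted over 11070 tested genes, was under 0.05.

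Ccl2 was higher in APC-KO tumours, set against APC-WT, both without and with Dox. Its log2 values were 12.58, 12.52 and 12.66 in APC-KO no-Dox tumours, against 11.91, 12.11 and 12.36 in APC-WT no-Dox tumours. With Dox they were 12.52, 12.35 and 12.38 in APC-KO tumours, against 12.08, 12.18 and 12.18 in APC-WT tumours. The genotypes did not overlap in either state. The difference was 0.46 ± 0.09 without Dox (adjusted p 0.00204), a 1.38-fold higher level, and 0.27 ± 0.09 with Dox (adjusted p 0.0471). Without Dox the call held with each array left out, with adjusted p up to 0.00957. With Dox it lay close to the threshold: the adjusted p was 0.0811 after quantile normalization, and between 0.0533 and 0.151 on leaving out tumour 1 or 3 of the APC-KO no-Dox group, tumour 2 of the APC-WT no-Dox group, or any one of the 6 Dox tumours. For Dox against no Dox, Ccl2 was at -0.18 ± 0.09 in APC-KO and 0.02 ± 0.09 in APC-WT tumours, and neither passed (adjusted p 0.417 and 0.934). The 95% intervals of these differences were -0.36 to 0.01 and -0.17 to 0.21.

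**Figure D1:**
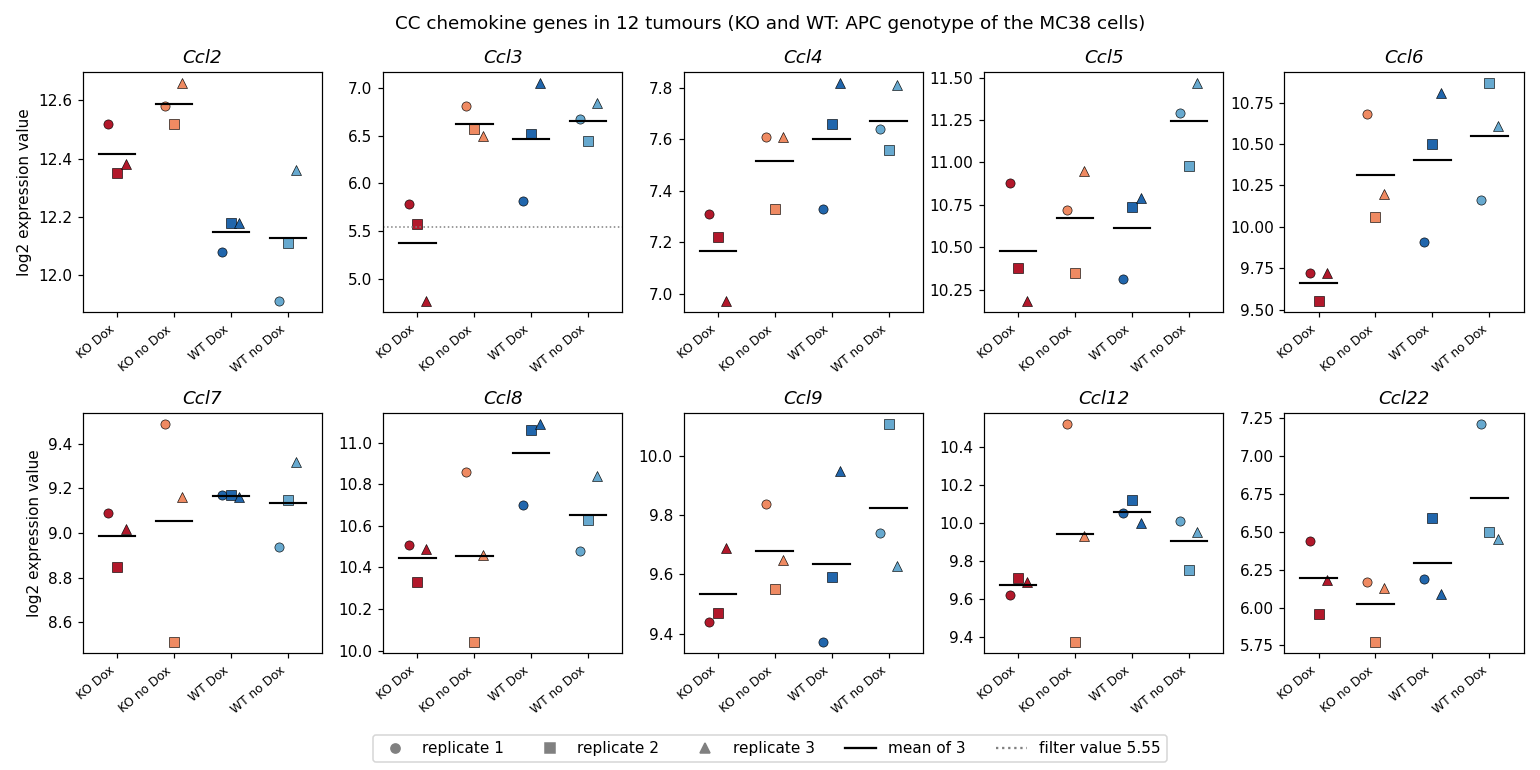
Log2 expression value (y axis, a separate scale for each gene) of 10 CC chemokine genes in 4 groups of 3 tumours (x axis); symbols are replicates, bars the mean of 3, and the dotted line the filter value of 5.55. Ccl2 lies higher in both APC-KO groups, between 12.35 and 12.66, and Ccl3 lies lowest in APC-KO Dox tumours, between 4.77 and 5.79.

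Without Dox, 3 of the 10 genes differed between the genotypes: Ccl2 was higher in APC-KO tumours, and Ccl5 and Ccl22 were lower. The share called, 30.0%, is near the 24.9% of all tested genes called in this comparison, of which 13.8% were higher and 11.1% lower, so the number of chemokine genes that differed does not stand apart. Ccl5, which T cells and natural killer cells secrete and interferon induces in many cells, had log2 values of 10.72, 10.35 and 10.95 in APC-KO no-Dox tumours, against 11.29, 10.98 and 11.47 in APC-WT no-Dox tumours. These values did not overlap, though the highest APC-KO tumour lay just under the lowest APC-WT tumour. The difference was -0.58 ± 0.19 (adjusted p 0.0393). Leaving out tumour 1 or 2 of the APC-KO group, or tumour 1 or 3 of the APC-WT group, ended the call, with adjusted p between 0.0758 and 0.152. It also did not pass with the mean of probe sets (adjusted p 0.0514), with no trend (0.0548), or with array quality weights, where it was -0.39 with an adjusted p of 0.161. Ccl5 has 1 probe set, so with the mean of probe sets only the values of other genes changed.

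Ccl22 had log2 values of 6.17, 5.77 and 6.13 in APC-KO no-Dox tumours, against 7.21, 6.50 and 6.45 in APC-WT no-Dox tumours. The groups did not overlap, and tumour 1 of the APC-WT group stood above the other 2. The difference was -0.70 ± 0.20 (adjusted p 0.0202), and its adjusted p was 0.078 on leaving out tumour 2 of the APC-KO group, 0.0812 on leaving out tumour 1 of the APC-WT group, and 0.0562 when arrays were weighted by quality. The other 7 genes differed by between -0.23 and 0.04 in this comparison, and none of them passed. For Ccl3 the difference was -0.03 ± 0.28 with a 95% interval of -0.62 to 0.57, which leaves room for a change in either direction.

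With Dox, 5 of the 10 genes differed between the genotypes, or 50.0%, where 19.9% of all tested genes were called, 11.9% higher and 7.99% lower. Ccl2 was higher in APC-KO tumours, and Ccl3, Ccl4, Ccl6 and Ccl8 were lower. Of the 10 differences 9 were below 0, with a median of -0.28 beside 0.01 for all tested genes. For 6 genes, Ccl3, Ccl4, Ccl6, Ccl7, Ccl8 and Ccl12, every APC-KO Dox tumour lay below every APC-WT Dox tumour, which held for 18.0% of all tested genes. The genes were chosen with earlier results of these data known, so these shares and the median are a description and no test. Single tumours decided the number called. It was 0 on leaving out tumour 3 of the APC-KO Dox group or tumour 2 or 3 of the APC-WT Dox group, and 1 on leaving out tumour 2 of the APC-KO Dox group. It was 3 on leaving out tumour 1 of the APC-KO Dox group, tumour 3 of the APC-KO no-Dox group or tumour 2 of the APC-WT no-Dox group, and also 3 with no filter on level.

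Ccl3, which encodes macrophage inflammatory protein 1 alpha, showed the widest difference of the 10. Its log2 values were 5.79, 5.58 and 4.77 in APC-KO Dox tumours, against 5.82, 6.52 and 7.05 in APC-WT Dox tumours. The groups lay almost together at their nearest tumours, and tumour 3 of the APC-KO group lay under the filter value. The difference was -1.08 ± 0.28 (adjusted p 0.0143), and the call ended on leaving out tumour 3 of the APC-KO group (adjusted p 0.0662) or tumour 2 or 3 of the APC-WT group (0.0508 and 0.0742). Ccl4, the beta form of the same protein family, is the next of the 10 genes on the chromosome. It had values of 7.31, 7.22 and 6.97 in APC-KO Dox tumours, against 7.33, 7.66 and 7.82 in APC-WT Dox tumours. Again the groups did not overlap but nearly met at tumour 1 of the APC-WT group, the lowest of its group for both genes. Ccl4 differed by -0.44 ± 0.13 (adjusted p 0.0273), with adjusted p between 0.0522 and 0.133 on leaving out tumour 2 or 3 of either group.

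Ccl6 had log2 values of 9.72, 9.55 and 9.72 in APC-KO Dox tumours, against 9.91, 10.50 and 10.81 in APC-WT Dox tumours. The APC-KO tumours lay close together, and the APC-WT tumours were spread more widely. The difference was -0.74 ± 0.21 (adjusted p 0.0257). The second probe set of Ccl6 gave -0.73 ± 0.21, with an adjusted p of 0.0375 over all probe sets, so both probe sets passed. The call ended on leaving out tumour 2 or 3 of either group (adjusted p between 0.0594 and 0.126). Its neighbour Ccl9 had values of 9.44, 9.47 and 9.69 in APC-KO Dox tumours, against 9.37, 9.59 and 9.95 in APC-WT Dox tumours, which overlapped. Without Dox it had 9.84, 9.55 and 9.65 in APC-KO tumours, against 9.74, 10.11 and 9.63 in APC-WT tumours. With Dox it did not pass, with differences of -0.10 ± 0.14 in the probe set tested and -0.15 ± 0.13 in its other one (adjusted p 0.657 and 0.587).

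Ccl8 had log2 values of 10.51, 10.33 and 10.49 in APC-KO Dox tumours, against 10.70, 11.06 and 11.09 in APC-WT Dox tumours, a difference of -0.51 ± 0.16 (adjusted p 0.0443). Its adjusted p was 0.052 with the replicate number as a block and 0.0533 with no filter on level. It lay between 0.0523 and 0.157 on leaving out any of the 3 APC-KO Dox tumours, tumour 3 of the APC-KO no-Dox group, tumour 2 or 3 of the APC-WT Dox group, or tumour 2 of the APC-WT no-Dox group. Ccl12 had values of 9.62, 9.71 and 9.69 in APC-KO Dox tumours, against 10.05, 10.12 and 10.00 in APC-WT Dox tumours. The Dox groups were tight and did not overlap, yet the difference of -0.39 ± 0.19 did not pass (adjusted p 0.18). The fit shares 1 estimate of the spread, and the 3 APC-KO no-Dox tumours, at 10.52, 9.37 and 9.93, had an SD of 0.58 against 0.05 in APC-KO Dox and 0.06 in APC-WT Dox tumours. With only the groups compared the adjusted p for Ccl12 was 0.00126, with arrays weighted by quality 0.0323, and on leaving out tumour 1 or 2 of the APC-KO no-Dox group 0.0304 and 0.031. Ccl7 had values of 9.09, 8.85 and 9.02 in APC-KO Dox tumours, against 9.17, 9.17 and 9.16 in APC-WT Dox tumours, and differed by -0.18 ± 0.18 without passing (adjusted p 0.529).

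**Figure D2:**
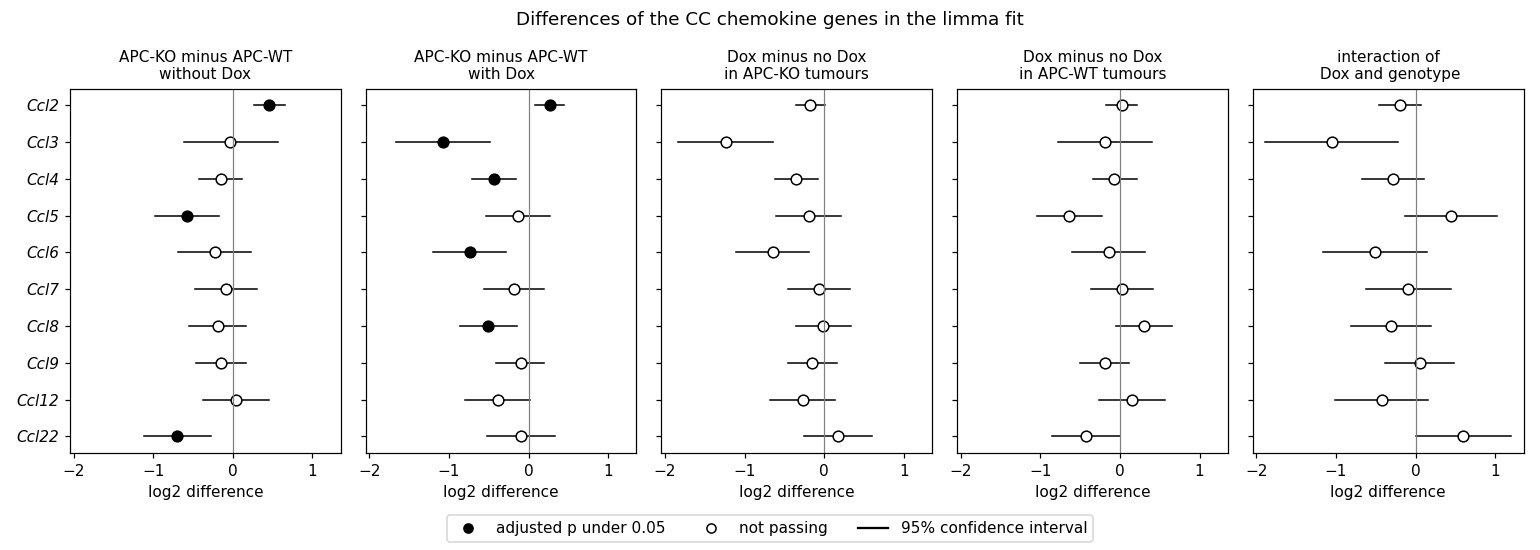
Log2 difference (x axis) of each CC chemokine gene (y axis) in 5 comparisons of the limma fit, with 95% confidence intervals; filled points passed an adjusted p of 0.05. In the genotype comparisons 3 genes passed without Dox and 5 with Dox, and none passed for Dox in either genotype or for the interaction.

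Dox changed none of the 10 genes past the threshold in APC-KO tumours. In limma 0 of 10 were called, beside 0.542% of all tested genes. At an unadjusted p under 0.05 there were 3, Ccl3, Ccl4 and Ccl6, beside 13.1% of all tested genes. The APC-KO Dox tumours lay below all 3 APC-KO no-Dox tumours for 4 genes, Ccl2, Ccl3, Ccl4 and Ccl6, which held for 9.67% of all tested genes. For Ccl2 the groups met at their nearest tumours, both at 12.52 to the digits given. Here too the genes were chosen with earlier results known, so these shares are a description and no test. For Ccl3 the values were 5.79, 5.58 and 4.77 in APC-KO Dox tumours, against 6.81, 6.57 and 6.49 in APC-KO no-Dox tumours. That is a difference of -1.24 ± 0.28 with an adjusted p of 0.0704. Of the 12 fits that leave out 1 tumour, it passed in those without tumour 1 of the APC-KO Dox group (adjusted p 0.0421) and tumour 1 or 3 of the APC-WT Dox group (0.0306 and 0.0386), and in the other fits the adjusted p reached 0.255. Ccl6 was at 9.72, 9.55 and 9.72 in APC-KO Dox tumours, against 10.68, 10.06 and 10.20 in APC-KO no-Dox tumours, a difference of -0.65 ± 0.21 (adjusted p 0.21). Ccl4 differed by -0.35 ± 0.13 (adjusted p 0.257). The other genes lay between -0.27 and 0.17, and Ccl22 was the only one above 0.

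In APC-WT tumours, too, none of the 10 genes passed with Dox. In limma 0 of 10 were called, beside 0.0271% of all tested genes, and 2 had an unadjusted p under 0.05, Ccl5 and Ccl22, beside 15.5% of all tested genes. Ccl5 had log2 values of 10.31, 10.74 and 10.79 in APC-WT Dox tumours, against 11.29, 10.98 and 11.47 in APC-WT no-Dox tumours. Of the 10, it alone had all Dox tumours below all no-Dox tumours in this genotype, where 10.3% of all tested genes lay lower with Dox without overlap. The difference was -0.64 ± 0.19 with a 95% interval of -1.04 to -0.23 (adjusted p 0.154). Ccl22 was at 6.19, 6.59 and 6.09 in APC-WT Dox tumours, against 7.21, 6.50 and 6.45 in APC-WT no-Dox tumours, and differed by -0.43 ± 0.20 (adjusted p 0.316). Ccl8 was at 0.30 ± 0.16 (adjusted p 0.394). The other genes lay between -0.19 and 0.15.

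Whether the response to Dox differed between APC-KO and APC-WT tumours was tested as an interaction. In limma 0 of 10 genes passed, beside 0.0% of all tested genes, and 2 had an unadjusted p under 0.05, Ccl3 and Ccl22, beside 11.9% of all tested genes. Ccl3 was at -1.05 ± 0.39 and Ccl22 at 0.60 ± 0.28 (adjusted p 0.332 and 0.419). The other genes lay between -0.51 and 0.44. The larger number of genes called between genotypes with Dox than without is therefore not shown to be a different response to Dox.

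The 10 genes fall into 3 places of the genome. Sorted among the 10 alone by RefSeq position, Ccl2, Ccl7, Ccl12 and Ccl8 come in that order on chromosome 11. Ccl5, Ccl9, Ccl6, Ccl3 and Ccl4 come further along the same chromosome. Neighbours here are next to each other among the 10, and other genes between them were not looked up. Ccl22 stands apart on chromosome 8. Promoter sequences of RefSeq, build GRCm38.p6, were matched for 6 of the 10, Ccl3, Ccl6, Ccl8, Ccl9, Ccl12 and Ccl22. The 150 bases before the gene start of Ccl12 and Ccl8 are shown because they are the most alike of these 6 and belong to neighbours with an r of 0.73 over the 12 arrays. In a global alignment 100 of 161 columns were identical, or 62.1%, where the other 14 pairs had between 46.4% and 52.7%. Capitals mark the TATA box letters TATAAA on the strand of the gene, which start at -31 for Ccl12 and -32 for Ccl8, counted from the gene start. Ccl12 lies at chr11:82101695-82101844 and Ccl8 at chr11:82115035-82115184, both on the plus strand.
Ccl12: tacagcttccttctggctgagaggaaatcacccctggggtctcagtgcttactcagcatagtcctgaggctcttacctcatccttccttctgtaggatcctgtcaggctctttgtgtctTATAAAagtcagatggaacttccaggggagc
Ccl8: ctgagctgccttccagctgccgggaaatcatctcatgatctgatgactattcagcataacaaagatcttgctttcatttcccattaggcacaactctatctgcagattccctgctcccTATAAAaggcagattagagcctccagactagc

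The same stretch is shown for Ccl6 and Ccl9, the neighbouring CCR1 ligands. They share the longest identical run of any pair among the 6 genes with a sequence. Capitals mark that run of 13 bases, which starts at -55 for Ccl6 and at -14 for Ccl9. Over the whole stretch this pair was not among the most alike: 48.0% of the aligned columns were identical, against 62.1% for Ccl12 and Ccl8. Ccl6 lies at chr11:83593088-83593237 and Ccl9 at chr11:83578637-83578786, both on the minus strand.
Ccl6: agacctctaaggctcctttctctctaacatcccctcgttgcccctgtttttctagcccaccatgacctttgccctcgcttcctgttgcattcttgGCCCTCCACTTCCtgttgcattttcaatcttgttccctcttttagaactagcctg
Ccl9: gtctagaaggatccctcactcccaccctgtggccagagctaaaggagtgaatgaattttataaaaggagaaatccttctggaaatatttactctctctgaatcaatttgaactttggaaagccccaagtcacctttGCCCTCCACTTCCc

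In the 250 bases before the gene start, both strands were searched for 2 motifs. The TATA box letters TATAAA were found for Ccl8, Ccl9 and Ccl12, and in 12.4% of all promoters. For Ccl9 they started at -224 and -94 on the opposite strand and at -92 on its own. These lie farther from the gene start than -31 for Ccl12 and -32 for Ccl8. The letters TGANTCA, a loose form of the AP-1 motif with any base in the middle, were found for Ccl9, and in 6.7% of all promoters. In Ccl9 they read TGAATCA, which is not the form with C or G in the middle. That stricter form was not counted over all promoters. These are matches of letters in a short window and no measure of binding.

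Some of the genes varied together across the tumours. Taken in chromosomal order within each stretch, Pearson's r between a gene and the next of the 10 over the 12 arrays was 0.03 for Ccl2 and Ccl7, 0.81 for Ccl7 and Ccl12, and 0.73 for Ccl12 and Ccl8. In the other stretch it was 0.35 for Ccl5 and Ccl9, 0.78 for Ccl9 and Ccl6, 0.80 for Ccl6 and Ccl3, and 0.93 for Ccl3 and Ccl4. After each group's mean was taken away, the same pairs had r of 0.51, 0.82 and 0.76, and of -0.05, 0.81, 0.49 and 0.88. Pairs from different stretches also had high values within groups, 0.78 for Ccl6 and Ccl8 and 0.66 for Ccl4 and Ccl8, and whether neighbours were more alike than other pairs was not tested. Ccl7 and Ccl8 had r of 0.89 within groups, as had Ccl4 and Ccl5. Ccl2 went with none of the others over the 12 arrays: its r lay between -0.62, with Ccl22, and 0.03, with its neighbour Ccl7. Within groups, Ccl2 had r of 0.58 with Ccl5, 0.55 with Ccl4 and Ccl8, and 0.51 with Ccl7. It was 0.46 with Ccl6 and 0.33 with Ccl3, but 0.06 with Ccl12, -0.05 with Ccl9 and -0.29 with Ccl22. These values describe 12 arrays with shared group means and cell makeup, on which genes are not independent of each other.

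**Figure D3:**
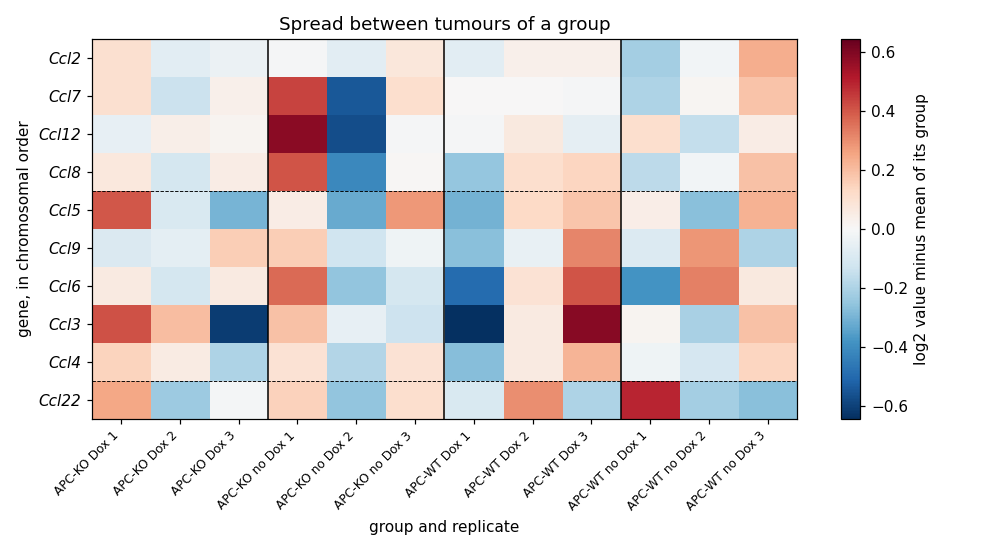
Log2 value minus the mean of its group (colour) for each CC chemokine gene (rows, in chromosomal order; dashed lines part the 2 stretches of chromosome 11 and Ccl22) in 12 tumours (columns; lines part the groups). APC-KO no-Dox replicate 2 was the lowest of its group for 9 of 10 genes, and replicate 1 the highest for 7. Such ranks were not counted over all tested genes.

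Single tumours stood out for many of the genes at once. In the APC-KO no-Dox group, tumour 2 was the lowest for 9 of 10 genes, all but Ccl3, and tumour 1 the highest for 7. For Ccl7 these 3 tumours had log2 values of 9.49, 8.51 and 9.16, and for Ccl8 10.86, 10.04 and 10.46. In the APC-KO Dox group, tumour 1 was the highest for 8 genes. In the APC-WT Dox group, tumour 1 was the lowest for 7 and tumour 3 the highest for 6. Such ranks were not counted over all tested genes, so they are not shown to be particular to the chemokine genes. The mean log2 value over 14 macrophage and monocyte markers was 10.89, 10.93 and 10.87 in the APC-KO no-Dox tumours, so tumour 2 was not low in it. Over 11 T cell and natural killer cell markers it was 6.44, 6.43 and 6.62. Over 9 fibroblast markers it was 10.71, 10.35 and 10.52, with tumour 1 highest and tumour 2 lowest. Ccl6, Ccl7, Ccl8, Ccl9, Ccl12 and Ccl22 had this order. Of the 9 fibroblast markers, Lum varied most in this group, with an SD of 1.0. Tumour 2 was also the lowest for the 3 tested CC receptors (8.06, 7.80 and 8.12) and 5 dendritic cell markers (8.00, 7.89 and 8.13). The same held for 3 epithelial markers (7.68, 7.33 and 7.61), which had the order of the fibroblast markers. It was not the lowest for 3 neutrophil markers (8.84, 8.62 and 7.28) or 6 endothelial markers (7.02, 7.08 and 7.09). Nor was it for 12 NF-kB inducers and feedback genes (8.79, 8.72 and 8.60) or 3 atypical and chemokine-like receptors (6.09, 6.19 and 6.09). The part of the cells behind any of these lists in the chemokine values was not tested.

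For each chemokine gene, the 3 tested genes outside the list with the highest r over the 12 arrays were taken. Among 11070 genes and 12 arrays high values arise readily, and they are given as a description. Ccl2 was most like C2, Alkbh5 and Grem1 (r 0.93, 0.93 and 0.92). Ccl3 was most like the collagenase gene Mmp13 (0.95), the interferon-induced guanylate-binding protein gene Gbp2 (0.93) and Sdha (0.93). Ccl4 was most like Erap1, which trims peptides for MHC class I (0.93), Gbp7 (0.93) and Gbp2 (0.92). Ccl5 was most like the interferon-induced gene Rsad2 (0.94), the lymphocyte gene Ms4a4b (0.93) and Acap1 (0.93). Ccl6 was most like Arg1, the macrophage arginase (0.93), the platelet factor gene Pf4 (0.91) and Hk3 (0.88). Ccl9 was most like Ly96, a co-receptor of Tlr4 (0.92), Gda (0.91) and Snhg6 (0.87). Ccl22 was most like Ccr7, the receptor that guides mature dendritic cells and T cells to lymph nodes (0.92), Myo9a (0.90) and Usp4 (0.90). Ccl7 and Ccl8 shared Dok2 (0.84 and 0.91) and the properdin gene Cfp (0.80 and 0.91), and their other genes were Hivep2 (0.81) and Ltv1 (0.93). Ccl12 was most like Cdv3, C1galt1c1 and Mier2, each at 0.87.

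Of the CC chemokine receptors, 3 were tested, Ccr1, Ccr2 and Ccr7. Ccr3, Ccr4, Ccr6, Ccr8, Ccr9 and Ccr10 lay under the filter value. Ccr2, the receptor of Ccl2, Ccl7 and Ccl12 on monocytes, was higher in APC-KO Dox tumours, against APC-WT Dox tumours, with means of 9.06 and 8.30 and a difference of 0.77 ± 0.17 (adjusted p 0.00555). Without Dox it was at -0.19 ± 0.17 and did not pass (adjusted p 0.436). Its interaction was 0.96 ± 0.23 (adjusted p 0.202). Ccr1, the receptor of Ccl3, Ccl5, Ccl6 and Ccl9 on myeloid cells, differed by between -0.23 and 0.10 in the 4 pairwise comparisons and did not pass in any. Ccr7 was at -0.58 ± 0.22 in APC-KO against APC-WT tumours without Dox (adjusted p 0.0683). Of 4 atypical and chemokine-like receptors 3 were tested, and none passed in any of the 5 comparisons. The smallest adjusted p among them was 0.266, for Ackr1, which was at -0.17 ± 0.10 with Dox.

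Of 11 other CC ligands, 2 were above the filter value and 6 lay under it. The other 3, Ccl19, Ccl21a and Ccl26, had no probe set of their own. Without Dox, Ccl25 was higher in APC-KO tumours, against APC-WT, by 0.25 ± 0.07 (adjusted p 0.0243), and was at 0.20 ± 0.07 with Dox (adjusted p 0.0774). Ccl17, the other ligand of CCR4 beside Ccl22 and named after its values were seen, was at -0.44 ± 0.21 and 0.17 ± 0.21 in these comparisons and did not pass (adjusted p 0.141 and 0.607). Of 12 tested NF-kB inducers and feedback genes, 2 were higher and none lower in APC-KO tumours without Dox: the cytokine gene Il1b, by 1.06 ± 0.30 (adjusted p 0.0209), and Nfkb2, by 0.33 ± 0.08 (adjusted p 0.00686). With Dox 1 was higher, Nfkb2 (0.29 ± 0.08, adjusted p 0.0183), and 1 was lower, the feedback inhibitor Tnfaip3 (-0.42 ± 0.11, adjusted p 0.0185). With Dox in APC-KO tumours, Tnfaip3 had the smallest p of the list, at -0.52 ± 0.11 (adjusted p 0.0625), and none of the 12 passed for Dox in either genotype.

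**Figure D4:**
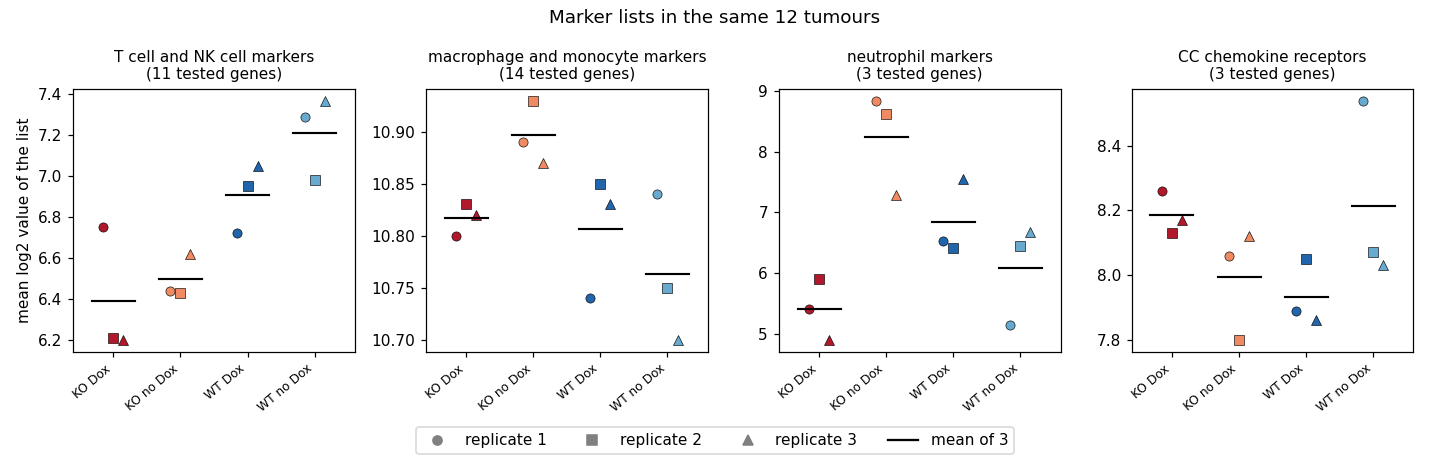
Mean log2 value over the tested genes of 4 lists (y axis, a separate scale for each list) in 4 groups of 3 tumours (x axis); symbols are replicates and bars the mean of 3. T cell and natural killer cell markers lay between 6.20 and 6.75 in APC-KO Dox tumours and 6.43 and 6.62 in APC-KO no-Dox tumours, against 6.72 to 7.05 in APC-WT Dox and 6.98 to 7.37 in APC-WT no-Dox tumours.

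Markers of leukocytes moved with these comparisons, and their part in the chemokine differences was not tested. Of 11 tested T cell and natural killer cell markers, 10 were lower in APC-KO tumours without Dox and 1, Cd4, did not pass, with a median of -0.80. The mean log2 value of the list ranged from 6.43 to 6.62 in APC-KO no-Dox and from 6.98 to 7.37 in APC-WT no-Dox tumours, beside the lower Ccl5 and Ccl22. With Dox 6 of the 11 were lower, with a median of -0.67, and the list ranged from 6.20 to 6.75 in APC-KO and from 6.72 to 7.05 in APC-WT tumours. The 4 largest called differences without Dox were those of Cd8b1 (-1.05), Gzmb (-1.0), Cd3g (-0.97) and Cd2 (-0.86), and with Dox those of Cd3g (-1.04), Prf1 (-1.0), Cd8b1 (-0.88) and Cd8a (-0.78), with SE between 0.15 and 0.28. Of the natural killer markers, Ncr1 lay under the filter value and Klrb1c had no probe set of its own. Of 14 tested macrophage and monocyte markers, 4 were higher in APC-KO tumours without Dox, Csf1r, Cx3cr1, Mertk and Ms4a7, by between 0.24 and 0.40, and none was lower. The list ranged from 10.87 to 10.93 in these and from 10.70 to 10.84 in APC-WT no-Dox tumours, beside the higher Ccl2. With Dox 1 was higher, Mertk (0.38 ± 0.08), and 1 was lower, Lyz2 (-0.37 ± 0.06), with ranges of 10.80 to 10.83 and 10.74 to 10.85, beside the lower Ccl3, Ccl4, Ccl6 and Ccl8.

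The 3 tested neutrophil markers were S100a8, S100a9 and Csf3r, and Cxcr2, Mpo and Elane lay under the filter value. Set against APC-WT, all 3 were higher in APC-KO tumours without Dox, S100a8 by 2.94 ± 0.64, S100a9 by 3.13 ± 0.70 and Csf3r by 0.41 ± 0.09. With Dox S100a8 and S100a9 were lower, and Csf3r was at 0.18 ± 0.09, the opposite sign, and did not pass (adjusted p 0.2). The mean over the 3 tested neutrophil markers ranged from 4.90 to 5.90 in APC-KO Dox, 7.28 to 8.84 in APC-KO no-Dox, 6.41 to 7.55 in APC-WT Dox and 5.14 to 6.67 in APC-WT no-Dox tumours. With Dox in APC-KO tumours S100a8 was lower by a log2 difference of -4.07 ± 0.64 and S100a9 by -4.30 ± 0.70 (adjusted p 0.0113 and 0.0133), and Csf3r was at -0.17 ± 0.09 (adjusted p 0.465), beside the differences of Ccl3, Ccl4 and Ccl6 that did not pass. Of 5 tested dendritic cell markers, Batf3 was higher in APC-KO tumours without and with Dox (0.37 ± 0.09 and 0.42 ± 0.09), and Zbtb46 was lower without Dox (-0.51 ± 0.13). Of 9 fibroblast markers 2 were higher in APC-KO tumours without Dox, Pdgfra (0.54 ± 0.07) and Fap (0.52 ± 0.17), and 3 with Dox, Col1a1 (0.50 ± 0.09), Pdgfra (0.41 ± 0.07) and Col3a1 (0.23 ± 0.05). Of 6 tested endothelial markers none passed without Dox. With Dox Cdh5 (0.56 ± 0.12), Emcn (0.39 ± 0.12) and Kdr (0.30 ± 0.09) were higher and Vwf (-0.52 ± 0.13) was lower. Of the 3 tested epithelial markers, Krt8 was lower in APC-KO tumours without Dox (-1.22 ± 0.41, adjusted p 0.0447). With Dox Krt8 was at nearly the same difference, -1.21 ± 0.41, and did not pass (adjusted p 0.0555). Cdh1 was higher with Dox (0.63 ± 0.17, adjusted p 0.0197) and at -0.17 ± 0.17 without it (adjusted p 0.5). All 6 markers of B cells and plasma cells, and 5 of 6 of eosinophils and mast cells, were under the filter value or had no probe set of their own.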

How the data were processed

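RNA of 12 tumours was hybridised as biotinylated cRNA, per the labels' protocols. The authors deposited normalized log2 values; the log2 scale was read from their range of 1.86 to 14.16. MAS5 is the tool named in the submitters' processing notes, and its background and scaling steps were not given. Array medians lay between 5.535 and 5.576, correlations within groups between 0.995 and 0.998, and no arrays held identical values. The number of arrays limits the precision.

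GEO's platform annotation gave 34945 probe sets 1 gene, 932 several and 9160 none, beside 64 controls; 34741 were matched to RefSeq by Entrez identifier. Each gene took its probe set of highest mean, and 11070 of 18193 genes, those with a mean of at least 5.55, were tested. limma 3.58.1 (R 4.3.3; group means, eBayes with a trend, Benjamini-Hochberg adjustment) was run over the 12 arrays, and again over all probe sets with no filter for second probe sets, Tdo2 and Apc. The fit was tested on simulated data. Named genes followed a rule: all 10 chemokines; in each list up to 4 that passed in a comparison, largest first, or the one with the smallest p; any receptor; and the 3 most similar genes. The chemokines, lists and tests were chosen with earlier results of these data known. Alternatives were the mean of probe sets, no filter, no trend, only the groups compared, quantile normalization, array quality weights, the replicate number as a block, and leaving out each array. Figures used Python 3.11.15 and matplotlib 3.10.9. A receptor is not reported here.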

Additional observations from a re-analysis of the deposited data

How the results depend on the processing

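Of the 10 genes, none was called for Dox in APC-WT tumours or for the interaction under any alternative tried. For Dox in APC-KO tumours the number was 0, and ranged from 0 to 1 when 1 array was left out. For genotype without Dox it was 3, ranged from 1 to 3 when 1 array was left out (1 on leaving out tumour 2 of the APC-KO no-Dox group or tumour 1 of the APC-WT no-Dox group), was 2 under the mean of probe sets and under no trend, where the call of Ccl5 ended, and was 1 under array quality weights. For genotype with Dox it was 5 and ranged from 0 to 6 when 1 array was left out. It was 3 under each of the mean of probe sets, no filter and no trend, where the calls of Ccl2 and Ccl8 ended. Ccl2, Ccl5 and Ccl8 have 1 probe set each, so under the mean of probe sets their own values did not change. With the replicate number as a block the numbers were 0 and 0 for Dox in APC-KO and APC-WT tumours, 3 and 4 for genotype without and with Dox, and 0 for the interaction; Ccl8 was the call that ended. No called difference of a chemokine gene changed direction. Over all tested genes, Dox in APC-WT tumours had 3 calls; the mean of probe sets gave 0, the groups compared alone 18, array quality weights 653, the replicate block 6, and leaving out 1 array 0 to 417. Dox in APC-KO tumours had 60; the mean of probe sets gave 35, no trend 29, the groups compared alone 36, and leaving out 1 array 0 to 94. Genotype with Dox had 2205; array quality weights gave 3510, and leaving out 1 array 1288 to 2350. The interaction had 0; array quality weights gave 13, and leaving out 1 array 0 to 118; it needs all groups, so the groups compared alone gave no value. The causes were not tested. Same-numbered arrays deviated together (r over 0.1) in 4 of 18 pairs, and 5 of 12 arrays correlated best with their own number. These are deviations from means of 3 arrays, so they cannot decide whether the numbers pair the tumours. Ccl3 and Ccl22 lie near the filter value.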
